A study of Homo sapiens with 30 samples.

Results

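Human chromosome 19 carries a dense family of genes named ZNF with a number. They were taken as the rows of the gene count tables whose symbol is ZNF, digits and at most 1 further letter, and whose features all lie on chromosome 19. The rule found 255 genes among the 27630 rows of the table and among the 1752 rows of that chromosome. A further 277 genes of the same naming pattern lie elsewhere. The final P in names such as ZNF833P marks a pseudogene in the annotation.

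C2H2 zinc finger proteins bind DNA through an array of small zinc-holding fingers. Many of those encoded on chromosome 19 also carry a KRAB domain, which recruits the corepressor TRIM28, and through it the histone methyltransferase SETDB1 and the HP1 proteins, to silence transposable elements and other targets. The genes arose by repeated tandem duplication, sit in long clusters, and are known for chromatin rich in trimethylated histone H3 lysine 9 over their gene bodies. Domains associated with the nuclear lamina, the protein layer below the inner nuclear membrane, are stretches of chromatin that are mostly poor in transcription.

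The RNA came from 8 libraries of HEK293FT cells, a derivative of the human embryonic kidney line HEK293, in 4 groups of 2 libraries: the nuclear fraction, the cytosolic fraction, the native lamina and the PFA lamina. In the lamina groups RNA was recovered by its nearness to APEX2, a peroxidase that tags neighbouring molecules with biotin, fused to lamin B1. One of them is labelled PFA, the usual abbreviation of the fixative paraformaldehyde, and is called the PFA lamina here, and the other, with no such label, the native lamina. Every group, both fractions included, came from asynchronous cells that carried the APEX2 lamin B1 construct, introduced by transfection with Lipofectamine 2000. The labels name neither a promoter for the construct nor an unlabelled library. Lamina-associated domains came from another line, HCT116, a human colon carcinoma line transfected in the same way, as 1 consensus list for each of the stages G1, S and G2.

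Total counts ran from 2321291 in PFA lamina replicate 2 to 8557777 in native lamina replicate 1. LMNB1, the gene of the construct, held 3231 to 6382 normalised CPM (counts scaled to a fixed library total) in the 4 fraction libraries, and 26168 to 76513 in the native and 81004 to 96237 in the PFA lamina libraries. The nuclear RNAs MALAT1 and NEAT1 together held 12819 to 21616 normalised CPM in the nuclear fraction, 951 to 1276 in the cytosolic fraction and 6206 to 13375 in native lamina libraries. The PFA lamina libraries stood apart from each other here, at 702 in replicate 1 and 3824 in replicate 2, and the native lamina ones in LMNB1, so that counts resting on them are also given without each. Cytosolic mRNAs (GAPDH, ACTB, EEF1A1 and RPLP0) moved the other way, with 899 to 1477 in the nuclear fraction, 5050 to 8548 in the cytosolic fraction, 2136 to 2184 at the native lamina and 1729 to 2890 at the PFA lamina. The part of these shifts in the results on zinc finger genes was not tested. All 4 HEK293 markers (PAX2, NEFM, NEFL and INA) had counts, though PAX2 had 0 in cytosolic replicate 2. Their summed level was 61.9 to 80.8 in the nuclear fraction and 272 to 327 in the cytosolic fraction. It was 199 to 284 at the native lamina and 116 to 164 at the PFA lamina. NEFL was the largest of the 4 in every library, at 39.5 to 232, and PAX2 held 0 to 6.25. The erythroid list summed to 0.134 to 2.21, with GATA1 alone over 3 counts (in 5 libraries). HBZ had 0 to 2 counts, and HBG1, HBG2 and HBE1 had 0 in every library. The 5 intestinal genes together held 22.7 to 51.8, of which CDX2 alone held 9.34 to 48.4. VIL1 held 0 to 12.7 and EPCAM 1.20 to 2.96, while CDX1 had at most 1 count and LGALS4 at most 9 in a library. The labels number the replicates but do not say that they were separate cultures, so p-values measure only the spread between these libraries, which may be technical.

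The sequences just upstream of the genes differ between the clusters, and 10 are shown because they belong to genes whose RNA is described in the paragraphs on values. Each line holds the 140 bases before the transcription start in RefSeq on GRCh38.p14, read 5′ to 3′ on the gene's strand. Capitals mark 3 words of 8 letters that were picked because they are much more frequent in these windows than in those of other genes: TCCAATCA, which holds the CCAAT box, TGTCACTC and ACTACATT, on either strand.
ZNF91: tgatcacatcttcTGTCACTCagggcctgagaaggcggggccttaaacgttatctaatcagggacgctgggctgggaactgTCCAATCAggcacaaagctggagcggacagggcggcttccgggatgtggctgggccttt
ZNF93: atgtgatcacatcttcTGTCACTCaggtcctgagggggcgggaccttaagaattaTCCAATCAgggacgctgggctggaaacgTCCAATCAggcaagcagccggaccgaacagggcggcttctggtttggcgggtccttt
ZNF85: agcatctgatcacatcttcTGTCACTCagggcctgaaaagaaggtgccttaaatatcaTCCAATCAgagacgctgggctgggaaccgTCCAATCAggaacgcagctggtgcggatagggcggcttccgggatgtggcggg
ZNF708: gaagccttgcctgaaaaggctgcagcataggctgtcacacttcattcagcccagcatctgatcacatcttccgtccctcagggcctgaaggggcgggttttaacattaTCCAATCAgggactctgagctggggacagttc
ZNF136: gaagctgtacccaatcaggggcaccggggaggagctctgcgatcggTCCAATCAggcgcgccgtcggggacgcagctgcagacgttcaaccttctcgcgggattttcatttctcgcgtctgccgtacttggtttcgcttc
ZNF433: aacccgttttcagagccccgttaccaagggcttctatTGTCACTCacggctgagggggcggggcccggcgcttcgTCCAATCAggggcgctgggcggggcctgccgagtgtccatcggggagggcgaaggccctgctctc
ZNF154: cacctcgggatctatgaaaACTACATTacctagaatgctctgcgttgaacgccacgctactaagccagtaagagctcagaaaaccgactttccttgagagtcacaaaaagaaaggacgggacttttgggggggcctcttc
ZNF550: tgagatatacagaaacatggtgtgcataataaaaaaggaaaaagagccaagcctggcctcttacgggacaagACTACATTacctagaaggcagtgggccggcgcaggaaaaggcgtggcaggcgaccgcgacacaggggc
ZNF358: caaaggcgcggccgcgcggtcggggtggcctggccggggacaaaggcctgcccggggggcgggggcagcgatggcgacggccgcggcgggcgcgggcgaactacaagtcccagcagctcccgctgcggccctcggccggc
ZNF444: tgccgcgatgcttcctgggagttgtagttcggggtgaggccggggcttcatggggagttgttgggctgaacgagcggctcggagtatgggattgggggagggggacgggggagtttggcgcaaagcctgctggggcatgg

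The windows of ZNF91, ZNF93, ZNF85 and ZNF708 come from the cluster of 37 genes between 19.78 and 24.31 Mb of hg19, called run 5 here, and those of ZNF136 and ZNF433 from run 3, between 11.59 and 12.74 Mb. ZNF154, ZNF550 and ZNF444 lie in run 16, at the end of the long arm, and ZNF358 in run 2. On GRCh38.p14 the printed stretches are chr19:23395472-23395611 (minus strand) for ZNF91, chr19:19900806-19900945 (plus strand) for ZNF93, chr19:20923111-20923250 (plus strand) for ZNF85, chr19:21329411-21329550 (minus strand) for ZNF708, chr19:12162956-12163095 (plus strand) for ZNF136, chr19:12035680-12035819 (minus strand) for ZNF433, chr19:57709205-57709344 (minus strand) for ZNF154, chr19:57559864-57560003 (minus strand) for ZNF550, chr19:7515963-7516102 (plus strand) for ZNF358 and chr19:56141147-56141286 (plus strand) for ZNF444. A run is a series of neighbouring zinc finger genes with gaps of at most 1 Mb, which gave 16 runs, 4 of them with a single gene.

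A RefSeq window of 300 bases, from 250 before to 50 after the start, was found for 214 of the 255 genes. TCCAATCA stood in 51 of these 214 windows (23.8%), in 17 of the 211 zinc finger genes elsewhere (8.06%) and in 290 of 17267 windows of the whole count table (1.68%). All 28 windows of run 5 held it, as did 19 of 24 in run 3 and 4 of 5 in run 1, and none of the 157 windows of the other runs did. In 50 of the 51 it was written on the strand of the gene, with its first base 233 to 23 bases before the start, and 19 windows held it at least 2 times. TGTCACTC stood in 37 windows, 25 in run 5 and 12 in run 3, at 172 to 68 bases before the start. ACTACATT stood in 34 windows, none of them in runs 1, 3 or 5, with 18 of 54 in run 16, 7 of 24 in run 9 and 6 of 20 in run 12. TGTCACTC stood in 6.16% of the windows of zinc finger genes elsewhere and 1.40% of the 17267 of the table, and ACTACATT in 3.79% and 1.06%. The word CTTCCGG, which holds the GGAA core of ETS family sites on its other strand, stood in 97 of the 214 windows (45.3%), against 34.6% of those of zinc finger genes elsewhere and 13.1% over the table. These words were chosen on the same windows, duplicated genes share their upstream sequence by descent, and a match is a description of letters only.

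Most of the 255 genes were lowly expressed. The mean level over the 8 libraries, as normalised CPM per kb of exonic length, had a median of 2.70 and quartiles of 0.860 and 4.51. The level was under 1 in 70 genes and over 10 in 17. No count at all was found for 7 genes, namely ZNF626, ZNF676, ZNF98, ZNF99 and ZNF730, all in run 5, and ZNF347 and ZNF677 in run 15. In each library 3 counts correspond to 0.312 to 1.10 normalised CPM, the level that a count of 0 allows, by counting error alone. The filter on low counts kept 208 genes for testing and removed 47, so the log2 fold changes, counts of calls and medians of log2 fold changes leave out the lowest genes, save where no filter is named. Of the 37 genes in run 5, 21 were tested, against 57 of 60 in run 16.

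The highest levels per kb were those of ZNF146 (32.2), ZNF121 (30.4), ZNF460 (28.8), ZNF317 (21.7) and ZNF581 (21.0). ZNF146, whose protein consists almost wholly of fingers, had 90.7 and 113 normalised CPM in the nuclear fraction, 110 and 145 in the cytosolic fraction, 127 and 131 in native lamina libraries, and 177 and 98.6 in PFA lamina libraries. The groups overlapped, and no contrast called it. Its exons overlap ZNF565, and reads on both were counted for each gene.

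The summed RNA of the family was highest in the nuclear fraction. All 255 genes together held 4577 and 4511 normalised CPM in the nuclear fraction, 2770 and 2840 in the cytosolic one, 3362 and 3666 in native lamina libraries, and 3458 and 3412 in PFA lamina libraries. The nuclear values lay above all others, the cytosolic ones below all others, and the 2 lamina groups overlapped in between. The 37 genes of run 5 held 599 and 511 in the nuclear fraction, 162 and 176 in the cytosolic fraction, 191 and 198 in native lamina libraries, and 223 and 204 in PFA lamina libraries, so that both lamina groups lay little above the cytosolic fraction and well below the nuclear one. A normalised CPM is a share of a library, so that less RNA of these genes and more RNA of other genes cannot be told apart.

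**Figure D1:**
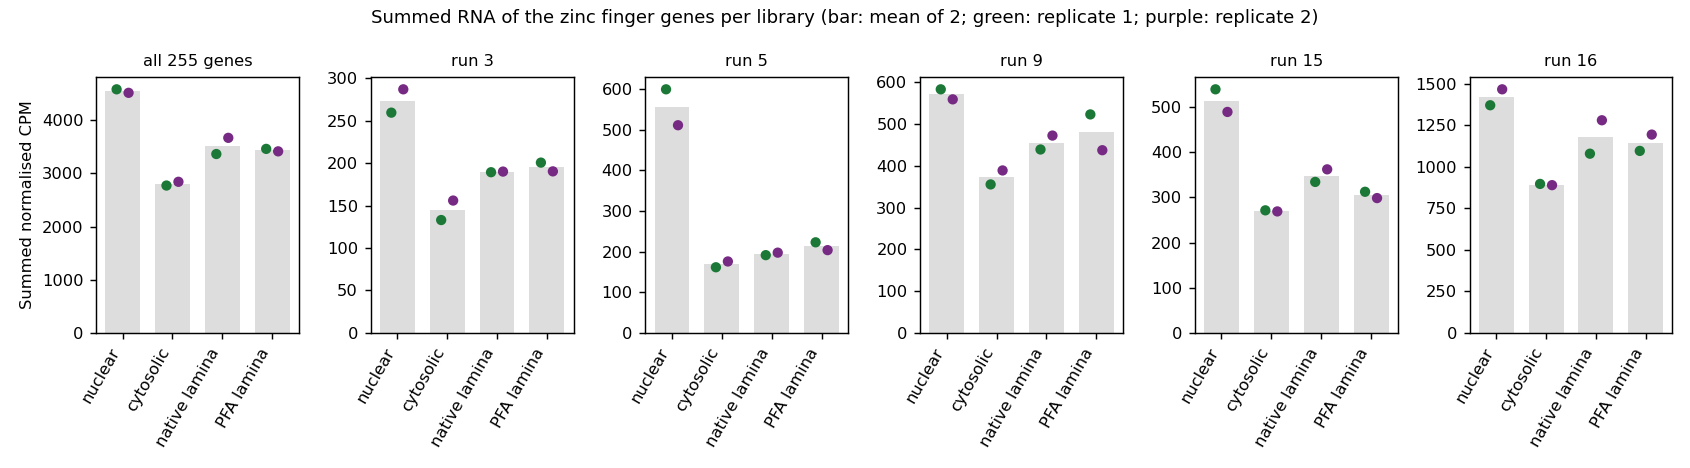
Summed normalised CPM of all 255 zinc finger genes and of 5 runs in each library, with bars for the mean of 2 libraries and points for replicates 1 and 2. The nuclear libraries are highest in every panel, and in run 5 both lamina groups (191 to 223) lie near the cytosolic libraries (162 and 176).

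The nuclear and cytosolic fractions were compared first, since they give the background for both lamina preparations. The nuclear fraction held more RNA than the cytosolic one for 89 of the 208 genes tested (42.8%) and less for 11 (5.29%), at an adjusted p under 0.05 in edgeR's quasi-likelihood test. Over all 16504 genes tested, 26.1% were called higher and 21.2% lower. The median log2 fold change was 0.90 over the family, 0.43 over 241 zinc finger genes elsewhere, 0.02 over the other genes of chromosome 19 and 0.13 over all genes. Of the 241 zinc finger genes elsewhere, 83 were higher and 23 lower. The difference between these lists was not tested. With no filter on low counts, 82 of 248 genes were higher and 10 lower. Leaving out a single library moved the 89 to between 43 (without nuclear replicate 1) and 106 (without PFA lamina replicate 2), and to 57 without nuclear replicate 2, 55 without cytosolic replicate 1 and 48 without cytosolic replicate 2. The 11 became 4 without nuclear replicate 1, 7 without cytosolic replicate 1 and 5 without cytosolic replicate 2.

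**Figure D2:**
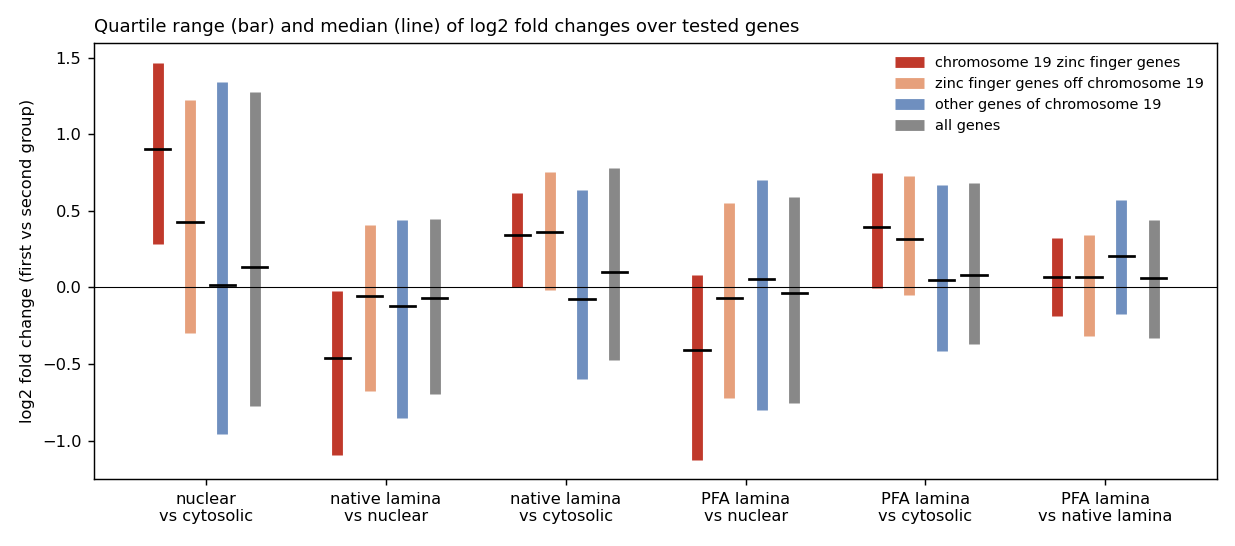
Log2 fold changes of tested genes in the 6 contrasts, with bars from the lower to the upper quartile and a line at the median, for the chromosome 19 zinc finger genes (n = 208), those elsewhere (n = 241), the other genes of chromosome 19 (n = 942) and all genes (n = 16504). The family's median is 0.90 for nuclear against cytosolic, -0.46 for native lamina against nuclear and -0.41 for PFA lamina against nuclear, while the all-gene medians lie between -0.07 and 0.13.

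Genes called higher in the nuclear fraction were spread over 12 of the 16 runs, with 22 in run 16 and 14 each in runs 5, 9 and 15. ZNF833P (hg19, chr19:11784813-11797384, plus strand), a pseudogene row in run 3, had 24.0 and 27.0 normalised CPM in the nuclear fraction, 0.535 and 1.06 in the cytosolic one, 4.47 and 5.75 in native lamina libraries, and 3.51 and 5.89 in PFA lamina libraries. The nuclear libraries were the highest, the cytosolic ones the lowest, and neither overlapped with the lamina libraries. Its log2 fold change between the fractions was 5.04 (SE 0.54, edgeR adjusted p 0.000347). ZNF154 (chr19:58207643-58220579, minus strand), whose promoter is often methylated in tumours, had 18.7 and 21.8 in the nuclear fraction, 1.34 and 0 in the cytosolic fraction, 2.39 and 2.36 in native lamina libraries, and 0.370 and 6.62 in PFA lamina libraries. The nuclear values stood alone. The log2 fold change was 4.68 (SE 0.98, edgeR adjusted p 0.00257) and 3.88 without cytosolic replicate 2. Without cytosolic replicate 1 the remaining cytosolic library had 0 counts, and against its floor of 3 counts the gene was at least 31.9-fold higher. ZNF418 (chr19:58433252-58446755, minus strand) had 4.51 and 5.15 in the nuclear fraction against 0.401 and 0 in the cytosolic one, from 3 cytosolic counts in all. The ratio was 19.7 with a 95% counting interval of 6.73 to 95.4. It was 12.1 without cytosolic replicate 2, and at least 7.62 against the floor of 3 counts without cytosolic replicate 1.

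The 11 genes lower in the nuclear fraction were ZNF358, ZNF574, ZNF428, ZNF296, ZNF579, ZNF580, ZNF581, ZNF787, ZNF444, ZNF71 and ZNF329, with 7 of them in run 16 and none in run 5. ZNF358 (chr19:7581004-7585911, plus strand) had 10.6 and 12.5 normalised CPM in the nuclear fraction, 62.3 and 59.4 in the cytosolic fraction, 21.6 and 26.5 in native lamina libraries, and 30.9 and 23.2 in PFA lamina libraries. Here the order of the fractions was turned round and the lamina libraries again lay between them. The log2 fold change between the fractions was -2.40 (SE 0.30, edgeR adjusted p 0.000551), and the call held in all 8 fits that left out 1 library. ZNF428 (chr19:44111376-44124014, minus strand), whose exons overlap SRRM5, had 10.7 and 9.11 against 41.8 and 22.8, a log2 change of -1.71 (SE 0.36, edgeR adjusted p 0.00261). ZNF581 (chr19:56154986-56156989, plus strand) had 8.87 and 17.4 against 23.1 and 48.8, without overlap, and a log2 change of -1.45 (edgeR adjusted p 0.0127). It was -0.84 without cytosolic replicate 2 and no longer called, and the call was also lost without nuclear replicate 1.

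Other measures of these 11 genes were set beside those of the 89. Their median exonic length was 2021 bases, against 4029 bases in the genes higher in the nuclear fraction and 3851.5 bases in those not called. Their median level was 13.1 normalised CPM per kb, against 3.16 and 3.30. The median number of CG dinucleotides per 300 base window was 29, against 19.5. The windows of ZNF358 and ZNF444 printed above hold 22 and 9 CG in 140 bases and no capitals. Beyond the printed bases, ZNF444 holds ACTACATT on the opposite strand, 228 bases before the start. Exonic length, level and CG number were not tested against the calls.

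**Figure D3:**
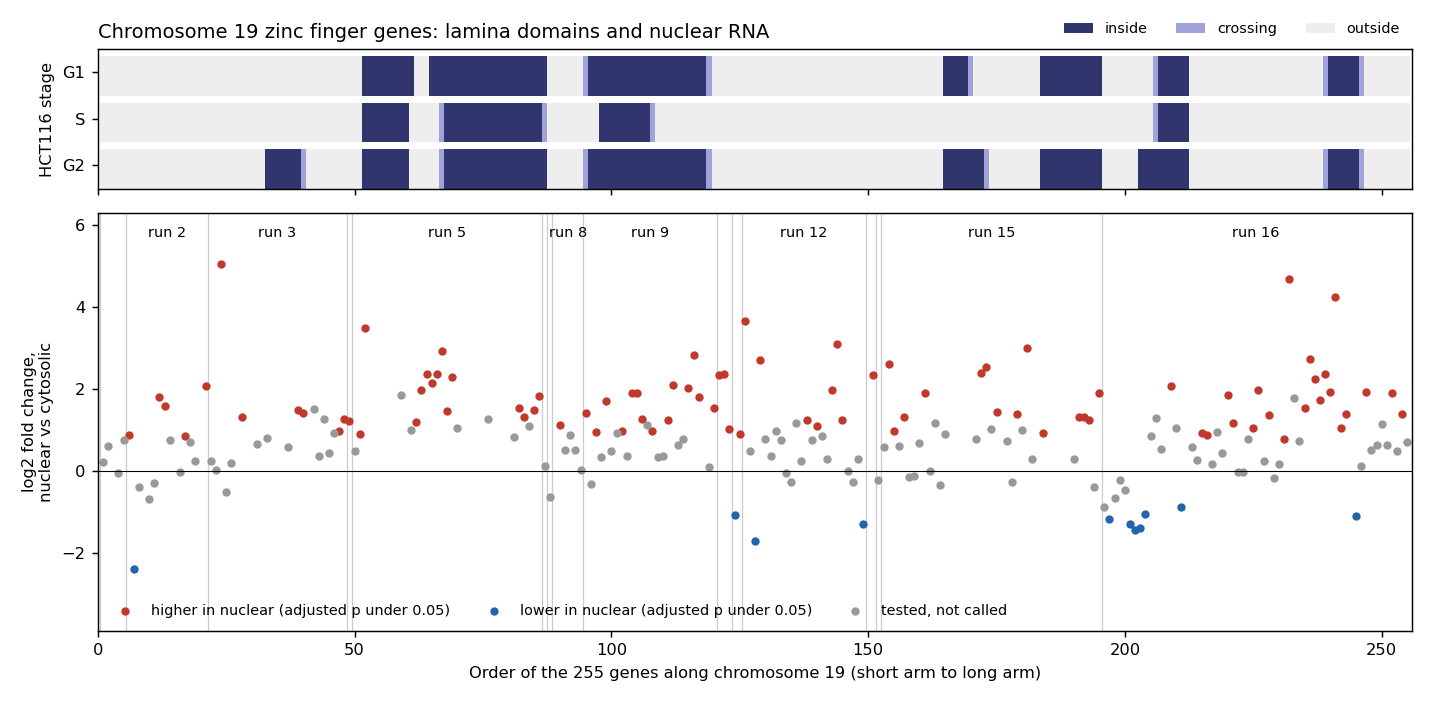
All 255 zinc finger genes in order along chromosome 19: the upper panel gives each gene's place inside, across the edge of or outside the HCT116 lamina domains of G1, S and G2, and the lower panel the log2 fold change of nuclear against cytosolic RNA for the 208 tested genes. All 21 tested genes of run 5 lie above 0, though the filter could keep a gene through its nuclear libraries alone, and 7 of the 11 blue points lie in run 16.

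Relative to the nuclear fraction, the native lamina had 31 genes of the family lower and 1 higher (adjusted p under 0.05, edgeR). The lower ones were 14.9% of the 208 tested, while 3.87% of all genes tested were called higher and 3.44% lower. The median log2 fold change was -0.46, and 49 of 208 genes had a positive value. Zinc finger genes elsewhere had a median of -0.06, with 13 higher and 12 lower, and all genes had a median of -0.07. All 31 lower genes were among the 89 called higher in the nuclear fraction than in cytosol. The 2 comparisons share the nuclear libraries, so this overlap is not an independent result. With total counts in place of TMM factors the calls were 5 higher and 13 lower, so that the higher ones were 27.8% of calls against 3.12%. That scaling raised the median of all genes by 0.28, and the family's median stayed 0.40 below that of all genes in both. The 31 became 0 without nuclear replicate 1, 1 without nuclear replicate 2, 3 without native replicate 1 and 4 without native replicate 2. They became 50 where only the 4 libraries compared were fitted.

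Run 5 held 10 of the 31 lower genes and was singled out after its values were seen. All 21 of its tested genes had a negative log2 fold change at the native lamina, from -3.57 to -0.33, with a median of -1.52. The filter could keep a gene through its nuclear libraries alone, which sets the sign against nuclear in advance. ZNF506 had 61 and 47 nuclear counts and 0 to 9 in each other library, and ZNF737 had 23 and 14 against 2 to 6. The share of negative values is therefore no independent support. That median was the lowest among the 8 runs with at least 6 genes, where the other 7 ranged from -0.72 to -0.14. ZNF506 (chr19:19903520-19932560, minus strand) had 9.49 and 8.07 normalised CPM in the nuclear fraction, 1.20 and 0.211 in the cytosolic fraction, 0.832 and 0.589 in native lamina libraries, and 0 and 2.21 in PFA lamina libraries. The nuclear libraries stood alone and the other 3 groups overlapped. The log2 fold change of native lamina against nuclear was -3.57 (SE 0.95, edgeR adjusted p 0.0411). ZNF708 (chr19:21473962-21512241, minus strand) had 26.3 and 18.6 in the nuclear fraction, 4.68 and 5.50 in the cytosolic fraction, 6.03 and 3.98 in native lamina libraries, and 8.32 and 5.15 in PFA lamina libraries. It showed the same layout, with a log2 change of -2.15 (SE 0.43, edgeR adjusted p 0.0163). ZNF91, a KRAB protein known to restrain SVA retrotransposons (chr19:23540498-23578362, minus strand), had 34.4 and 21.0 in the nuclear fraction, 10.4 and 8.46 in the cytosolic fraction, 11.1 and 10.02 in native lamina libraries, and 9.61 and 5.52 in PFA lamina libraries. Its log2 fold change at the native lamina was -1.39 (SE 0.38, edgeR adjusted p 0.0453). The call on ZNF506 and ZNF91, though not on ZNF708, was lost with total counts. ZNF93, the KRAB protein that acts on L1 elements, had 3 counts in nuclear replicate 1 and 0 in the other 7 libraries, and was not tested.

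Genes outside run 5 were also among the lower ones. ZNF575 (chr19:44037340-44040284, plus strand) had 6.85 and 8.93 normalised CPM in the nuclear fraction, 1.07 and 0 in the cytosolic fraction, 0.728 and 1.03 in native lamina libraries, and 0.739 and 1.10 in PFA lamina libraries, with a log2 change of -3.15 (SE 0.81, edgeR adjusted p 0.0370) for the native lamina against nuclear. ZNF154 had -3.08 (edgeR adjusted p 0.0452), a call that the DESeq2 Wald test did not make. With total counts the calls on both were lost. The calls on ZNF506, ZNF708, ZNF91, ZNF575 and ZNF154 were each lost without either nuclear library and without either native library, and that on ZNF91 also without either cytosolic library. The single higher gene was ZNF358, with a log2 change of 1.06 (SE 0.30, edgeR adjusted p 0.0485). This call was lost without any one of the 6 nuclear, cytosolic and native libraries, with DESeq2 size factors, with upper-quartile factors, and with at least 10 counts required in every library.

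The native lamina had 16 genes higher and 1 lower when set against the cytosolic fraction. This was 7.69% and 0.481% of the 208, while 6.99% of all genes tested were called higher and 6.77% lower. The family's median log2 fold change was 0.34, near the 0.36 of zinc finger genes elsewhere and above the 0.10 of all genes. The 16 became 0 without cytosolic replicate 1, without cytosolic replicate 2 or without native replicate 2, 5 without native replicate 1, and 8 without either nuclear library. None of the 16 lay in run 5, and 6 lay in run 16. ZNF331, an imprinted gene (chr19:54024177-54083523, plus strand), had 34.2 and 23.02 normalised CPM in the nuclear fraction, 7.89 and 7.40 in the cytosolic fraction, 28.3 and 43.0 in native lamina libraries, and 12.2 and 32.7 in PFA lamina libraries. The native and nuclear libraries overlapped, and both lay above the cytosolic ones, with a log2 change of 2.21 (SE 0.44, edgeR adjusted p 0.00997) for native against cytosolic. ZNF846 (chr19:9868151-9879410, minus strand) had 8.25 and 6.36 in the nuclear fraction, 2.27 and 1.06 in the cytosolic fraction, 6.34 and 5.89 in native lamina libraries, and 3.70 and 5.15 in PFA lamina libraries, a log2 change of 1.82 (edgeR adjusted p 0.0456) that was 2.51 and not called without cytosolic replicate 1. ZNF833P had 2.72 (edgeR adjusted p 0.01004) and ZNF358, the lower gene, -1.34 (edgeR adjusted p 0.0123). The calls on ZNF331 and ZNF833P were lost without either cytosolic library and without native replicate 2, and those on ZNF358 and ZNF846 without any one of the cytosolic and native libraries. That on ZNF846 was also lost without either nuclear library.

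Set against the nuclear fraction, the PFA lamina had 42 genes lower (20.2% of those tested) and 11 higher (5.29%). Over all genes 9.63% were called higher and 7.81% lower. The median log2 fold change of the family was -0.41, against -0.07 in zinc finger genes elsewhere and -0.04 over all genes, and it was -0.57 without PFA replicate 1 and -0.47 without PFA replicate 2. With total counts 13 were higher and 22 lower, so that higher calls made up 37.1% against 20.8%, while the median of all genes moved by 0.17. The 11 and 42 became 4 and 19 without PFA replicate 1, 16 and 47 without PFA replicate 2, 0 and 0 without nuclear replicate 1, and 1 and 11 without nuclear replicate 2. With only the 4 libraries compared they were 1 and 17. Of the 42 lower genes, 39 were called higher in the nuclear fraction than in cytosol, and 27 were also lower at the native lamina, which is 64.3% of the 42 and 87.1% of the 31. All 3 contrasts share the nuclear libraries.

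The lower genes included 9 of run 5, where the median was -1.16 and 0 of 21 values were positive, and 9 of run 15. In run 5 the filter could again keep a gene through its nuclear libraries alone, so these signs are no independent support. ZNF91 had -1.83 (SE 0.40, edgeR adjusted p 0.0131), ZNF708 -1.70 (edgeR adjusted p 0.0219) and ZNF575 -3.13 (edgeR adjusted p 0.0302). The call on ZNF91 was lost without nuclear replicate 1, that on ZNF708 without either nuclear library, and that on ZNF575 without either nuclear library or PFA replicate 1. ZNF506 had -3.32 (edgeR adjusted p 0.0429) and ZNF154 -2.73 (edgeR adjusted p 0.0493). For these last 2 genes the PFA libraries differed, at 0 and 2.21 normalised CPM for ZNF506 and 0.370 and 6.62 for ZNF154. Without PFA replicate 1 the values were -1.97 and -1.60 and neither was called. Without PFA replicate 2, ZNF506 had 0 counts and, against the floor of 3 counts, was at least 15.8-fold lower than in the nuclear fraction, and ZNF154 had 2 counts and a nuclear to PFA ratio of 54.8, with a 95% counting interval of 15.2 to 452. Both calls were also lost without either nuclear library or native replicate 1, and that on ZNF506 without native replicate 2. With total counts ZNF506, ZNF154 and ZNF575 were not called, and ZNF154 was not called with upper-quartile factors or by the DESeq2 Wald test. With only the 4 libraries compared ZNF91, ZNF708, ZNF506 and ZNF154 were not called.

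The 11 higher genes were ZNF358, ZNF317, ZNF574, ZNF473, ZNF579, ZNF581, ZNF787, ZNF444, ZNF211, ZNF329 and ZNF274. ZNF444, a SCAN domain protein (chr19:56652535-56672262, plus strand), had 14.8 and 15.3 normalised CPM in the nuclear fraction, 32.4 and 30.2 in the cytosolic fraction, 24.6 and 31.5 in native lamina libraries, and 49.9 and 42.3 in PFA lamina libraries. The PFA libraries were the highest, above both cytosolic values, and the log2 fold change was 1.62 against nuclear (SE 0.29, edgeR adjusted p 0.00754) and 0.56 against cytosolic, where it was not called (edgeR adjusted p 0.260). ZNF329 (chr19:58637695-58662148, minus strand) had 8.87 and 6.53 in the nuclear fraction, 15.8 and 17.3 in the cytosolic fraction, 13.8 and 13.998 in native lamina libraries, and 23.8 and 21.7 in PFA lamina libraries, with 1.56 against nuclear (edgeR adjusted p 0.0128). ZNF579 (chr19:56088891-56092211, minus strand) had 10.6 and 10.996, 19.8 and 28.8, 16.3 and 22.5, and 24.4 and 34.6 in the same order of groups, with 1.44 against nuclear (edgeR adjusted p 0.0183). ZNF274, which recruits SETDB1 to the 3′ ends of zinc finger genes (chr19:58694356-58724928, plus strand), had 26.1 and 20.8 in the nuclear fraction, 24.5 and 18.8 in the cytosolic fraction, 35.8 and 31.1 in native lamina libraries, and 52.1 and 49.3 in PFA lamina libraries. Its fractions overlapped and both PFA libraries lay above all others, with a log2 fold change of 1.11 against nuclear (SE 0.29, edgeR adjusted p 0.0233) and 1.22 against cytosolic, which was not called (edgeR adjusted p 0.0664). ZNF473, a component of the machinery that processes histone pre-mRNA, had 27.1 and 28.3 in the nuclear fraction and 62.6 and 58.1 at the PFA lamina, a log2 change of 1.12 (edgeR adjusted p 0.0176). ZNF473 was named after its values were seen. The calls on ZNF329, ZNF579 and ZNF274 at the PFA lamina were lost without either nuclear library, and that on ZNF274 also without PFA replicate 1. That on ZNF444 was lost without nuclear replicate 1. With only the 4 libraries compared ZNF444 was still called, and ZNF329, ZNF579 and ZNF274 were not.

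Against the cytosolic fraction a single gene was called at the PFA lamina, and it was higher. Over all genes 0.527% were called higher and 0.145% lower. The median log2 fold change of the family was 0.40, against 0.32 in zinc finger genes elsewhere and 0.08 over all genes. At an unadjusted p under 0.05 in edgeR, 34 of the 208 genes were higher and 2 lower. So were 53 and 6 of the 241 zinc finger genes elsewhere, and 2135 and 1421 of all 16504 genes. The difference between these lists was not tested. The gene was ZNF550 (chr19:58053204-58071231, minus strand), with 25.7 and 24.1 normalised CPM in the nuclear fraction, 5.35 and 7.40 in the cytosolic fraction, 19.3 and 19.4 in native lamina libraries, and 18.3 and 25.8 in PFA lamina libraries. The cytosolic libraries stood alone as the lowest. The log2 fold change was 1.79 (SE 0.35, edgeR adjusted p 0.0471), and the call was lost without any one of the nuclear and cytosolic libraries, without PFA replicate 2, with DESeq2 size factors and with only the 4 libraries compared. The number called higher was 11 without PFA replicate 1, 7 with no filter on low counts and 5 by DESeq2. By edgeR's adjusted p, 0 genes of the family were called higher than both fractions in either lamina preparation. At an unadjusted p under 0.05 in both contrasts there was 1 at the native lamina, ZNF8, and 6 at the PFA lamina, ZNF134, ZNF211, ZNF274, ZNF419, ZNF473 and ZNF627. By adjusted p the DESeq2 Wald test gave 2 for the PFA preparation, ZNF211 and ZNF274, and 0 for the native one. The share of all genes above both fractions was not counted. By edgeR's adjusted p it cannot exceed the 3.87% called higher at the native lamina than nuclear, or the 0.527% at the PFA lamina than cytosolic. These counts are therefore not a result about the family.

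Between the PFA and native lamina none of the 208 genes was called by edgeR or by DESeq2, and none of the 16504 was by edgeR (0% in either direction). At an unadjusted p under 0.05 in edgeR, 4 genes of the family were higher and 7 lower, as were 897 and 924 of all genes. The median log2 fold change was 0.07, near the all-gene median of 0.06, and it was -0.05 with total counts. Leaving out PFA replicate 2 gave 2 genes called lower.

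**Figure D4:**
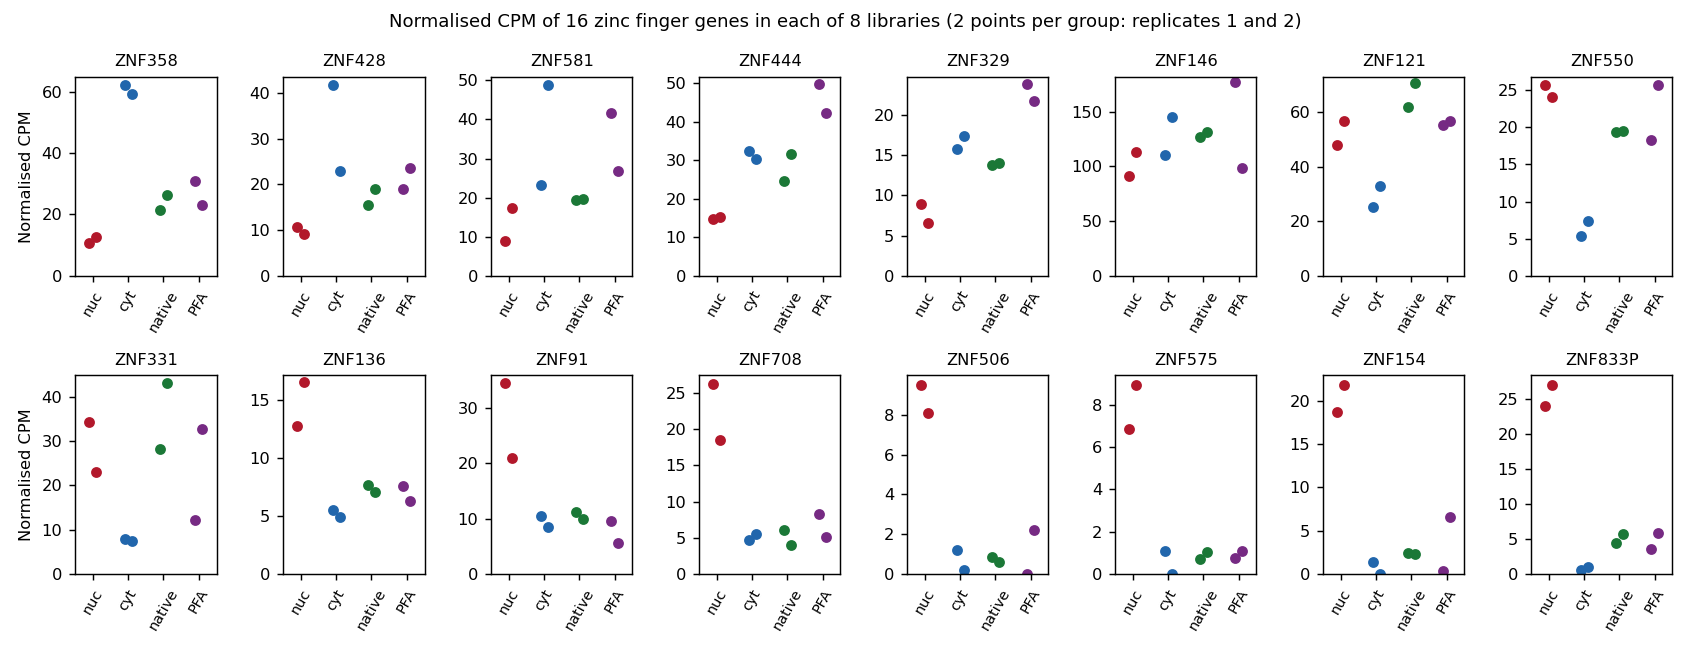
Normalised CPM of 16 zinc finger genes in each library, with nuc for nuclear fraction, cyt for cytosolic fraction, native and PFA for the lamina groups, and 2 points per group for replicates 1 and 2. ZNF358 to ZNF329 are lowest in the nuclear libraries, while ZNF91, ZNF708, ZNF506, ZNF575, ZNF154 and ZNF833P are highest there.

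The other genes named for a known role or a high level had log2 fold changes under 1.5 in size. ZNF224, a KRAB repressor (chr19:44598482-44613983, plus strand), had 24.1 and 22.3 normalised CPM in the nuclear fraction, 12.4 and 6.77 in the cytosolic fraction, 23.7 and 24.3 in native lamina libraries, and 17.9 and 15.5 in PFA lamina libraries. It was higher than in the cytosolic fraction in the nuclear fraction (log2 fold change 1.25, edgeR adjusted p 0.0105; lost without nuclear replicate 1 or cytosolic replicate 2) and at the native lamina (1.30, edgeR adjusted p 0.0271; lost without any one of the cytosolic and native libraries). ZNF649 (chr19:52392488-52408305, minus strand) had 24.7 and 23.2 in the nuclear fraction against 10.3 and 14.2 in the cytosolic one (0.98, edgeR adjusted p 0.0298; lost without any one of these 4 libraries). ZNF8 (chr19:58790318-58807254, plus strand) had 51.3 and 52.0 at the native lamina against 23.4 and 21.6 in the cytosolic fraction (1.20, edgeR adjusted p 0.0164; lost without any one of these 4 libraries). Exons of ZNF224, ZNF649 and ZNF8 each overlap a further gene row, so that reads could be counted for both. ZNF808, known for a part in pancreas development (chr19:53030909-53059303, plus strand), had 5.76 and 3.78 in the nuclear fraction and 1.97 to 3.34 in the other 6 libraries, and passed the test in no contrast. ZNF121 (chr19:9676404-9695209, minus strand) and ZNF460 (chr19:57791335-57805436, plus strand), among the highest by level, were higher in the nuclear fraction and at the native lamina than in the cytosolic fraction, with log2 fold changes of 0.85 and 1.19 for ZNF121 (edgeR adjusted p 0.0223 and 0.0164) and 0.93 and 1.22 for ZNF460 (edgeR adjusted p 0.0456 and 0.0392). All 4 calls were lost without either cytosolic library. Those in the nuclear fraction were also lost without either nuclear library, and that on ZNF460 there with total counts. At the native lamina that on ZNF121 was also lost without native replicate 2, and that on ZNF460 without any one of the nuclear and native libraries. ZNF317 (chr19:9251056-9274091, plus strand) had 43.9 and 68.7 in the nuclear fraction and 81.6 to 112 in the other 6 libraries, and was called only at the PFA lamina against nuclear (0.99, edgeR adjusted p 0.0346), a call lost without either nuclear library, without PFA replicate 1, with upper-quartile factors and with only the 4 libraries compared.

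The lamina domain lists of HCT116 placed the family more often inside a domain than other genes. A gene was inside when its whole span lay in 1 domain of the stage, and crossing when only a part did. Of the 255 genes, 85 (33.3%) were inside in G1, 44 (17.3%) in S and 95 (37.3%) in G2, and 6, 4 and 7 crossed an edge. With only domains of at least 500 kb the numbers inside were 74, 44 and 74. Over all genes of the table, the number inside in G1 was 1834 of 27264 (6.73%), in S 1615 (5.92%) and in G2 2252 (8.26%). Of 274 zinc finger genes elsewhere, 21, 21 and 30 were inside. The family made up 49.7% of the genes of chromosome 19 that were inside in G1, 51.2% in S and 39.3% in G2. There is 1 list per stage, the genes of a cluster share its domain, and no test was made.

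The stages differed in parts of clusters. All 44 genes inside in S were also inside in G1 and G2, 37 were inside in G1 and G2 alone, 14 in G2 alone, 4 in G1 alone and 156 in none. On chromosome 19 the G1 domains covered 12.8 Mb, the S domains 9.0 Mb and the G2 domains 13.9 Mb. Run 5 was mostly inside at each stage, with 32, 28 and 28 of its 37 genes. Between its domains, which leave a gap from 21.2 to 21.4 Mb in G1 and from 21.1 to 21.6 Mb in S and G2, lay ZNF430, ZNF714 and ZNF431, outside in every list. These 3 were named after their values were seen. ZNF714 had 132 and 125 normalised CPM in the nuclear fraction, 29.8 and 35.5 in the cytosolic fraction, 38.1 and 40.8 in native lamina libraries, and 32.3 and 39.7 in PFA lamina libraries, more in every library than ZNF430 or ZNF431. ZNF85 and ZNF708 flank this gap, and were inside in G1 and outside in S and G2. ZNF85 (chr19:21106059-21133503, plus strand) had 5.76 and 4.64 in the nuclear fraction, 3.74 and 1.27 in the cytosolic fraction, 2.49 and 2.65 in native lamina libraries, and 3.51 and 0.736 in PFA lamina libraries, and was not called between the fractions (log2 fold change 1.00, edgeR adjusted p 0.251).

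Run 9, between 36.67 and 38.27 Mb, had 23 of 26 genes inside in G1 and G2 and 10 in S. Run 15, between 52.07 and 54.08 Mb, had 17 of 43 inside in G1, 0 in S and 20 in G2, and run 16 had 12, 6 and 16 of 60. Genes of run 3 were inside in G2 only, where a domain of 0.3 Mb from 12.1 to 12.4 Mb held ZNF433, ZNF878, ZNF844, ZNF788, ZNF20, ZNF625 and ZNF136, with ZNF44 across its edge. None of the 24 genes of run 12, between 44.04 and 45.58 Mb, was inside in any stage. Of the genes in the G2 domain of run 3, ZNF136 (hg19, chr19:12273862-12300696, plus strand) had the most RNA, with 12.8 and 16.5 normalised CPM in the nuclear fraction, 5.48 and 4.86 in the cytosolic fraction, 7.69 and 7.07 in native lamina libraries, and 7.58 and 6.25 in PFA lamina libraries. It was higher in the nuclear fraction than in cytosol, with a log2 change of 1.49 (edgeR adjusted p 0.00993, lost without nuclear replicate 2 or cytosolic replicate 2), as was ZNF44, with 1.42 (edgeR adjusted p 0.0171, lost without any one of these 4 libraries). ZNF433 (chr19:12125532-12146556, minus strand) had 0.423 to 2.03 normalised CPM over the 8 libraries, with overlapping groups, and passed the test in no contrast. ZNF844 and ZNF788 had 1 and 2 counts in all 8 libraries together.

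The median RNA level in HEK293FT was lower over genes inside HCT116 domains than over genes outside, and it differed between clusters inside. The median level was 1.23 normalised CPM per kb for the 85 genes inside in G1 and 3.39 for the 164 outside. In S it was 0.643 for 44 and 3.19 for 207, and in G2 0.862 for 95 and 3.42 for 153. Run 5, with a median of 0.581 over its 37 genes, gave 32 of the genes inside in G1 and 28 of those in S. Run 9, with 23 of 26 genes inside in G1 and G2, had a median of 2.84. The 37 genes inside in G1 and G2 alone had 2.40, the 14 in G2 alone 0.710, and the 156 in no stage 3.43. The part of run 5 in the difference was not tested. All 7 genes without any count were inside in G1 and G2, and 5 of them in S. The filter on low counts kept 56 of 85 genes inside in G1, against 147 of 164 outside. The domains and the RNA come from different lines, and the levels of clustered genes are not independent.

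**Figure D5:**
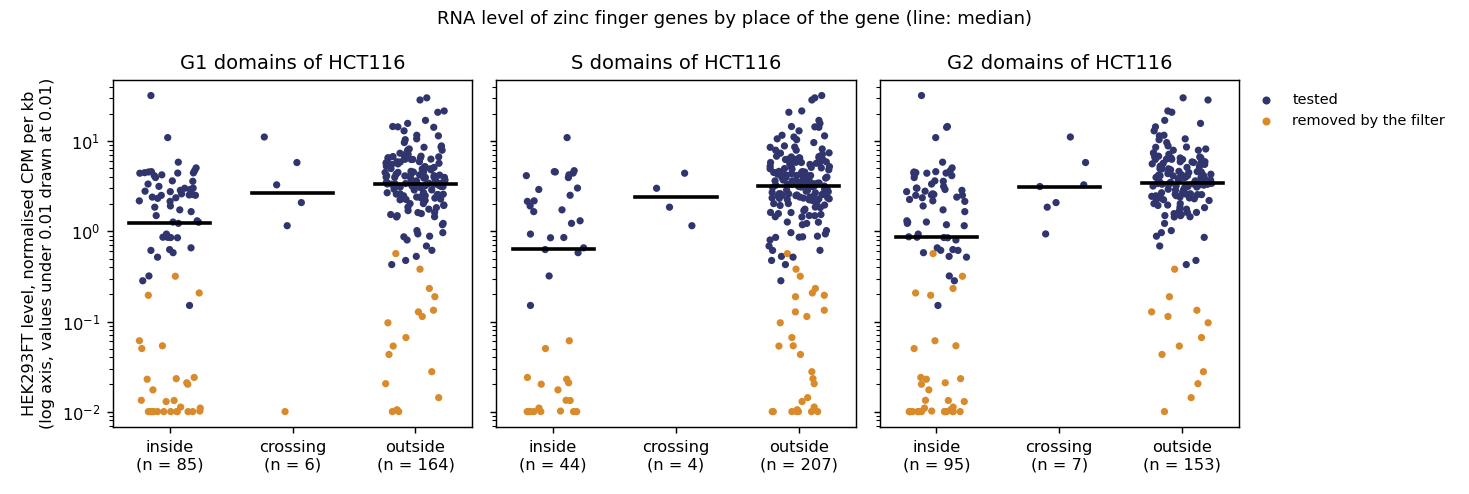
Mean level over 8 HEK293FT libraries of each of the 255 zinc finger genes, as normalised CPM per kb on a log axis, by place of the gene in the HCT116 lamina domains of G1, S and G2, with a line at the median; orange points were removed by the filter on low counts. Genes inside have medians of 1.23, 0.643 and 0.862 and spread over the whole range, and ZNF146, the highest gene of all, is inside in G1 and G2.

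For native lamina against nuclear, the median log2 fold change of tested genes was lower inside than outside in each list, and the share called lower did not follow it in each; neither difference was tested. The median log2 fold change was -0.79 over 56 genes inside in G1 and -0.32 over 147 outside, -1.29 over 26 inside and -0.35 over 178 outside in S, and -0.72 over 61 inside and -0.32 over 140 outside in G2. In G1, 10 of the 56 inside and 20 of the 147 outside were called lower at the native lamina, in S 5 of 26 and 25 of 178, and in G2 7 of 61 and 22 of 140, so that in G2 the share was smaller inside. Few or none of these calls held without a nuclear or a native library, as given above, and the split was not repeated without each. The 26 tested genes inside in S include 12 of run 5, among them ZNF506 and ZNF737, which had few counts outside the nuclear libraries. For nuclear against cytosolic the medians were 1.24 inside and 0.76 outside in G1, 1.26 and 0.83 in S, and 1.10 and 0.76 in G2. Against the cytosolic fraction the native lamina gave 0.31 inside and 0.34 outside in G1, 0.14 and 0.37 in S, and 0.30 and 0.34 in G2. These differences were not tested either.

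Of the genes that KRAB proteins work through, 12 were listed: TRIM28, the methyltransferase SETDB1 and its partner ATF7IP, the HP1 genes CBX1, CBX3 and CBX5, the helicase CHD3, the HUSH complex genes FAM208A, MPHOSPH8 and PPHLN1, and MORC2 and SMARCAD1. All 12 were tested. In the nuclear against the cytosolic fraction 1 was higher (8.33%) and 3 were lower (25%), with a median log2 fold change of -0.27. Over all genes 26.1% were called higher and 21.2% lower, so the share of lower calls was near that of all genes. TRIM28 had 270 and 325 normalised CPM in the nuclear fraction, 753 and 710 in the cytosolic fraction, 411 and 376 in native lamina libraries, and 414 and 552 in PFA lamina libraries. Its cytosolic libraries were the highest and its nuclear ones the lowest, and the log2 fold change between the fractions was -1.30 (SE 0.30, edgeR adjusted p 0.00433; lost without nuclear replicate 1). CBX1 and CBX3 were the other lower genes, at -1.81 (edgeR adjusted p 0.00227) and -1.55 (edgeR adjusted p 0.00323). MPHOSPH8 was the higher one, with 58.5 and 52.2 in the nuclear fraction, 21.0 and 20.3 in the cytosolic fraction, 33.3 and 27.7 in native lamina libraries, and 35.3 and 28.7 in PFA lamina libraries, a log2 change of 1.42 (SE 0.28, edgeR adjusted p 0.00198). SETDB1 had 69.6 and 79.7 in the nuclear against 73.8 and 71.9 in the cytosolic fraction, which overlapped.

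At the native lamina against nuclear 1 gene of the 12 was called, CHD3, with 83.9 and 110 normalised CPM in the nuclear fraction, 114 and 222 in the cytosolic fraction, 212 and 266 in native lamina libraries, and 120 and 127 in PFA lamina libraries. Its log2 fold change was 1.30 (SE 0.34, edgeR adjusted p 0.0387), and the call was lost without any one of the nuclear and native libraries and with upper-quartile factors. Total counts, DESeq2, no filter on low counts and only the 4 libraries compared each gave 3 higher genes there, CBX1, CBX5 and CHD3. MPHOSPH8 was called lower there with upper-quartile factors, at least 10 counts required, the replicate block or only the 4 libraries compared. In the other 4 contrasts the main edgeR fit called none of the 12. Other edgeR settings called some. CBX3 was lower at the native lamina than cytosolic with no filter, and with TRIM28 under the replicate block or only the 4 libraries compared. Against nuclear, CBX1 was higher at the PFA lamina with total counts or no filter. MPHOSPH8 was lower there with upper-quartile factors, at least 10 counts required or the replicate block. CBX3 was lower at the PFA lamina than cytosolic with no filter. At an unadjusted p under 0.05 the main edgeR fit gave 0 higher and 2 lower for native lamina against cytosolic, 2 and 1 for PFA lamina against nuclear, 1 and 2 for PFA lamina against cytosolic, and 0 and 2 for PFA against native lamina. Over all 16504 genes these were, in the same order, 2829 and 2401, 2887 and 2832, 2135 and 1421, and 897 and 924. DESeq2 called CBX3 and TRIM28 lower at the native lamina and CBX3 lower at the PFA lamina than in the cytosolic fraction, and none in the last contrast or for PFA lamina against nuclear.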

How the data were processed

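RNA was measured in 8 HEK293FT libraries, 2 for each of 4 groups. Gene counts were deposited by the authors, made per the file headers with featureCounts 1.5.2 on hg19 RefFlat genes, ignoring strand and counting a read once for each gene it overlaps; no normalisation was applied. TopHat2 2.1.1 and Bowtie2 2.3.2 are named in the submitters' processing notes with no role. Strand being ignored, a gene and its antisense partner cannot be told apart, and reads shared by near-identical paralogs may be missing or misplaced. The header of cytosolic replicate 1 names its own input but the output of nuclear replicate 1. The deposited HCT116 domains are positions only, on a grid of 100 kb, 1 consensus list per stage. How replicates were combined is not given in the sources used here. The K562 samples, whose labels contradict each other, and the HCT116 input, pulldown and H3K9me3 samples were not analysed here.

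Counts were fitted over all 8 libraries with edgeR 4.0.16 in R 4.3.3 (filterByExpr by group, TMM factors, quasi-likelihood test), and p-values were adjusted by the Benjamini-Hochberg method over 16504 genes. A call is an adjusted p under 0.05. Normalised CPM values are edgeR's, with TMM factors. On simulated data for nuclear against cytosolic, over 16504 genes, 75% of 100 genes changed 4-fold and 9% of 100 changed 2-fold were recovered, with 4 unchanged genes called. Only these genes were changed, whereas the measured contrast called 26.1% of genes higher and 21.2% lower. The adjusted p depends on the share of genes changed, so the shares recovered do not give the power of that contrast. Alternatives were total counts, upper-quartile and DESeq2 size factors, the DESeq2 1.42.0 Wald test, other filters, a replicate block, only the 4 libraries compared, genes with exonic overlap left out, and each library left out. Genes named in full were, per contrast, the 3 largest called changes in each direction where every library of the group with more RNA had 20 counts or more, the 5 highest levels, the first 10 genes by position whose place differs between stages, and 8 of known role, beside the list of 12 partners. The members and lists were chosen with earlier results of these data known.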

Additional observations from a re-analysis of the deposited data

How the results depend on the processing

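Depth limits the lowest genes: 47 of the 255 were not tested, and PFA lamina replicate 2 held 2321291 counts. The labels do not say whether libraries with the same replicate number are paired. Correlations of same-numbered deviations were 0.28 for nuclear with cytosolic and 0.32 for native with PFA lamina. They were 0.16 for nuclear with native lamina, 0.09 for cytosolic with native lamina, 0.00 for nuclear with PFA lamina and -0.07 for cytosolic with PFA lamina. Whether such libraries share a preparation was not tested. With the replicate block, called genes (higher and lower) were 97 and 13 for nuclear against cytosolic, 3 and 36 for native lamina against nuclear, 17 and 1 against cytosolic, 15 and 46 for PFA lamina against nuclear, and 4 and 1 against cytosolic. The family's medians had the same sign under every alternative except that PFA against native lamina was -0.054 with total counts. For nuclear against cytosolic the lower genes were 6 with upper-quartile factors. For native lamina against nuclear the higher genes were 0 with DESeq2 size factors, upper-quartile factors or at least 10 counts required, 3 with no filter or by DESeq2, 5 with total counts and 7 with only the 4 libraries compared, and the lower ones 13 with total counts and 50 with 4 libraries. For PFA lamina against nuclear the lower genes were 22 with total counts and 17 with 4 libraries, where 1 was higher. For PFA lamina against cytosolic the higher genes were 0 with DESeq2 size factors or 4 libraries, 7 with no filter, 4 with at least 10 counts and 5 by DESeq2, and 1 was lower with no filter or by DESeq2. Leaving out 1 library at a time gave, as higher and lower, 43 to 106 and 4 to 14 for nuclear against cytosolic, 0 to 4 and 0 to 45 for native lamina against nuclear, 0 to 19 and 0 to 2 against cytosolic, 0 to 16 and 0 to 47 for PFA lamina against nuclear, 0 to 11 and 0 to 1 against cytosolic, and 0 and 0 to 2 for PFA against native lamina. With only domains of at least 500 kb, 74 genes were inside in G1, 44 in S and 74 in G2, so that G1 and G2 no longer differed in number. That limit leaves out the G2 domain of 0.3 Mb in run 3. Inside domains, 44 genes remained in G1 and in G2 where only stretches covered in all 3 stages were used. On chromosome 19 these stretches are the S domains, so this count equals that of S by definition. The cause of the other shifts was not tested. Of the named genes' values under other settings 1312 stayed on their side of the threshold, 29 gained and 29 lost a call, and without 1 library 1270 stayed, 20 gained and 150 lost one; none of them changed direction while called.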
